A study of Mus musculus with 2 samples.

Results

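The genes described here make, fold, glycosylate and dispose of proteins in the endoplasmic reticulum (ER), or report stress in it. They were chosen by name, as 44 symbols of a fixed list, and all 44 were found among the 31017 genes of the count table. RNA came from TUBO, a single mouse breast cancer line, cloned from a mammary tumour that arose in a rat Her2/neu-transgenic BALB/c animal. No treatment was given, and cultures grew flat on plastic in serum-containing DMEM/F12. The labels give 1 group of 2 libraries, replicate 1 with 35453278 counts and replicate 2 with 34098259. No condition was compared with another, and what was measured is how abundant each transcript was. Whether the replicates came from separate cultures is not stated, so their spread may be technical.

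Proteins that enter the secretory pathway are threaded through the SEC61 channel, given sugar chains by the oligosaccharyltransferase, and folded with the help of lectin chaperones and disulfide isomerases. Chains that fail to fold are pulled back to the cytosol and degraded, a route called ER-associated degradation (ERAD). When unfolded proteins build up, the sensors IRE1, PERK and ATF6 start the unfolded protein response, which slows translation and raises the transcription of chaperone and ERAD genes. Mammary epithelial cells secrete milk proteins in lactation and use this machinery to do so.

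Levels are CPM, counts divided by the TMM-scaled library size, and errors are the SD of both libraries (n = 2). Where 2 values of a gene are joined by "and", the first is replicate 1 and the second replicate 2. The limit that a count of 0 allows was 0.0842 CPM for replicate 1, against 0.0885 CPM for replicate 2, and all intervals cover counting error only. The epithelial markers Epcam, Krt8, Krt18 and Cdh1 were all at 1 CPM or more, with sums of 3622 CPM (replicate 1) and 3523 CPM (replicate 2). Of the markers fixed for other cell types, none of 3 fibroblast, 2 endothelial, 3 leukocyte and 3 plasma cell genes reached 1 CPM in both libraries. The fibroblast gene Col1a1 had 1.04 CPM in replicate 1 and 0.531 CPM in replicate 2, and Dcn and Pdgfrb had no count. The plasma cell genes, which mark the cell type best known for a large ER, had 1 count in replicate 1 and 0 in replicate 2, with Jchain and Ighm at 0 in both.

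The ER genes were found at levels that ranged from 0.809 CPM (Derl3) to 721 CPM (Canx). Of the 44 genes, 42 reached 1 CPM in both libraries, against 37.7% of all genes in the table. In the same way 21 reached 100 CPM in both, against 7.46% of all genes. Edem1, with 101 CPM in replicate 1 and 97.8 CPM in replicate 2, lay closest to that limit. Together the 44 genes took 277293 counts of replicate 1, or 0.782% of its total (95% Wilson interval 0.779% to 0.785%), and 259082 counts of replicate 2, or 0.760% (0.757% to 0.763%). The 5 genes with the most counts, Canx, Calr, Pdia3, Vcp and Sel1l, held 35.6% of this sum. The genes left under 1 CPM were the disulfide isomerase gene Pdia5 and the derlin gene Derl3.

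To compare different genes, CPM was divided by the length of the union of a gene's annotated exons in kilobases (CPM per kb). The median over the 44 genes was 26.3 ± 0.448 CPM per kb, and that over all genes at 1 CPM or more was 7.48 ± 0.0298 CPM per kb. On the scale log2(CPM per kb + 1), the median of the 44 genes exceeded that of the detected genes by 1.69 ± 0.02. Of the 44 genes, 39 lay above the median of the detected genes and 15 above their 90th percentile. These are descriptions, since the genes were chosen with earlier results of these data known. With coding length in place of exonic length, 36 lay above the median and 14 above the 90th percentile.

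**Figure D1:**
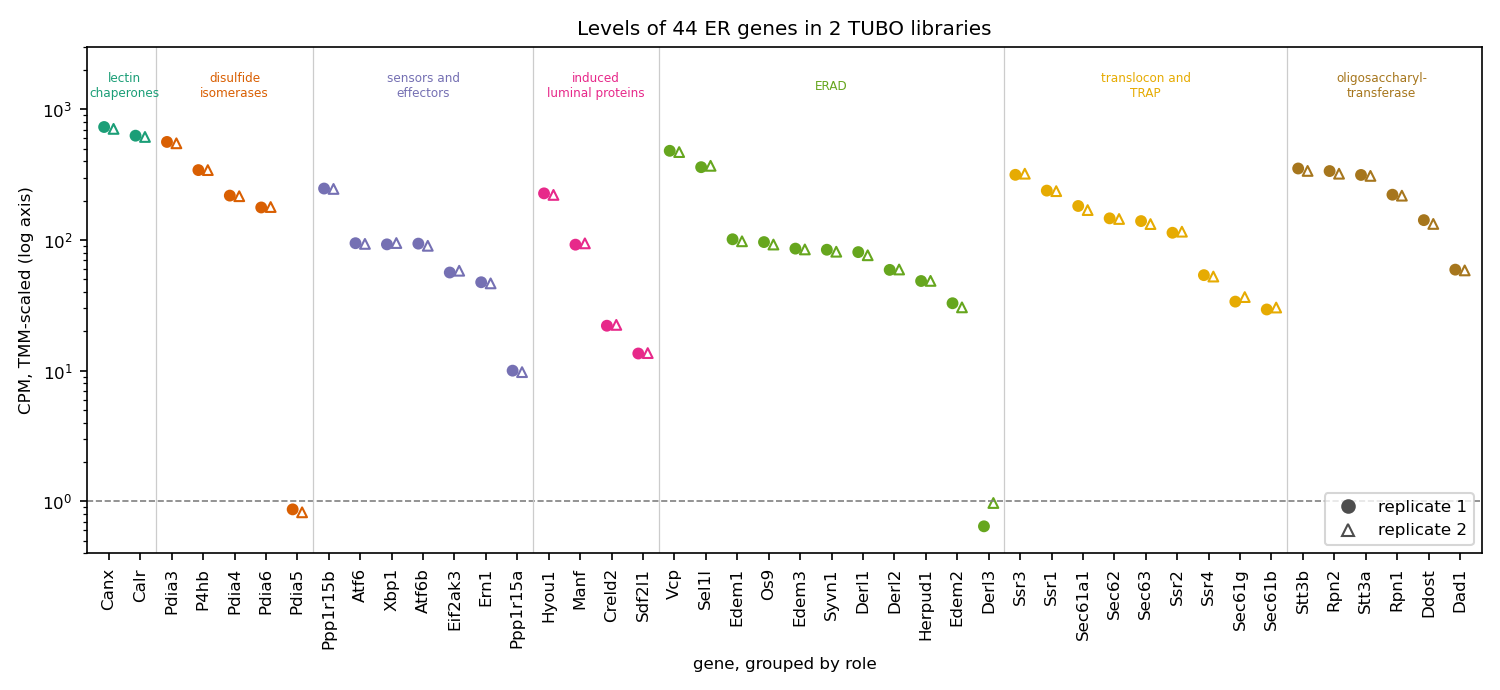
CPM of each of the 44 ER genes on a log axis, with filled circles for replicate 1 and open triangles for replicate 2, ordered by role and level. Both symbols of each gene but Derl3 nearly coincide, Pdia5 and Derl3 lie under the dashed line at 1 CPM, and Canx and Calr lie highest.

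The promoters were searched for the elements through which the unfolded protein response is known to act. The ER stress response element (ERSE, CCAAT and CCACG with 9 bases of any kind between them) is bound by ATF6 together with the CCAAT-binding factor NF-Y, and by XBP1. ERSE-II (ATTGG and CCACG with 1 base between them) is a shorter variant, known from Herpud1. The element UPRE (TGACGTGG) is bound by XBP1 and ATF6. The windows ran from 250 bases before to 50 bases after each RefSeq transcript start (GRCm38.p6), and both strands were searched. Of the 44 genes 37 had such a window. The ERSE letters were found in 6 of these 37 windows (16.2%), against 0.137% of 27025 genes with a window and 0.167% of the detected genes. The 6 genes were Calr, Canx, Creld2, Derl3, Pdia6 and Syvn1. ERSE-II was found in Herpud1 alone, against 0.0444% of all and 0.1% of detected genes. UPRE was found in Vcp alone, against 0.714% of all and 1.1% of detected genes.

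The 8 stretches are shown because they carry these elements, with the element letters in capitals, the flanks in lower case, and all written 5′ to 3′ on the strand of the gene. In Calr, Creld2 and Derl3 the ERSE lies on the opposite strand, so its parts appear as CGTGG and ATTGG.
Calr (chr8:84847045-84847123, minus strand): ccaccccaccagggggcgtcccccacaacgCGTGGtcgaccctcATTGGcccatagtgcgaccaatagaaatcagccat
Canx (chr11:50325770-50325848, minus strand): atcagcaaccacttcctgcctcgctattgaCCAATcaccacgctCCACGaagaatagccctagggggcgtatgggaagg
Creld2 (chr15:88819490-88819568, plus strand): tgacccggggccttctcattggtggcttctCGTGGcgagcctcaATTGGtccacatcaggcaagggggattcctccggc
Derl3 (chr10:75893212-75893290, plus strand): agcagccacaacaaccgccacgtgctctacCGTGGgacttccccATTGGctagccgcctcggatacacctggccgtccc
Pdia6 (chr12:17266461-17266539, plus strand): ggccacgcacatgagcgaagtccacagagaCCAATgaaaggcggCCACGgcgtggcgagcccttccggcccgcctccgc
Syvn1 (chr19:6046502-6046580, plus strand): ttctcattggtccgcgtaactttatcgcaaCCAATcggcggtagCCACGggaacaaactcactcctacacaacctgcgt
Herpud1 (chr8:94386347-94386417, plus strand): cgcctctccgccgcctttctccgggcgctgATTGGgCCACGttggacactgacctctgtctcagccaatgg
Vcp (chr4:43000584-43000651, minus strand): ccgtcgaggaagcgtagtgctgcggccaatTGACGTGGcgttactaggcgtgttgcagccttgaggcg

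The 6 ERSE matches lay before the start, beginning at position -162 in Calr, -156 in Derl3, -145 in Canx, -126 in Creld2, -98 in Pdia6 and -44 in Syvn1. The parts of the element were common on their own. The letters CCAAT were in 28 of 37 windows, against 41.1% of all genes and 43.1% of detected genes. The letters CCACG were also in 28 of 37, against 35.5% and 53.2%. Every ERSE holds both parts, and UPRE holds CCACG on its opposite strand. The median G and C content was 62.0% over the windows of the ER genes and 52.7% over all windows, and its part in these shares was not tested. CRE (TGACGTCA), the cyclic AMP response element, was found in Ppp1r15a alone, against 2.03% of all and 3.91% of detected genes. CARE (TGATGNAA), an ATF4 element, was found in Herpud1 alone, against 4.51% and 2.62%. The levels of genes with and without an ERSE overlapped. Those with one ran from Derl3 at 0.809 CPM to Canx at 721 CPM with a median of 131 CPM, and the 31 genes with a window and no ERSE ran from 0.848 to 557 CPM with a median of 94.4 CPM.

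**Figure D2:**
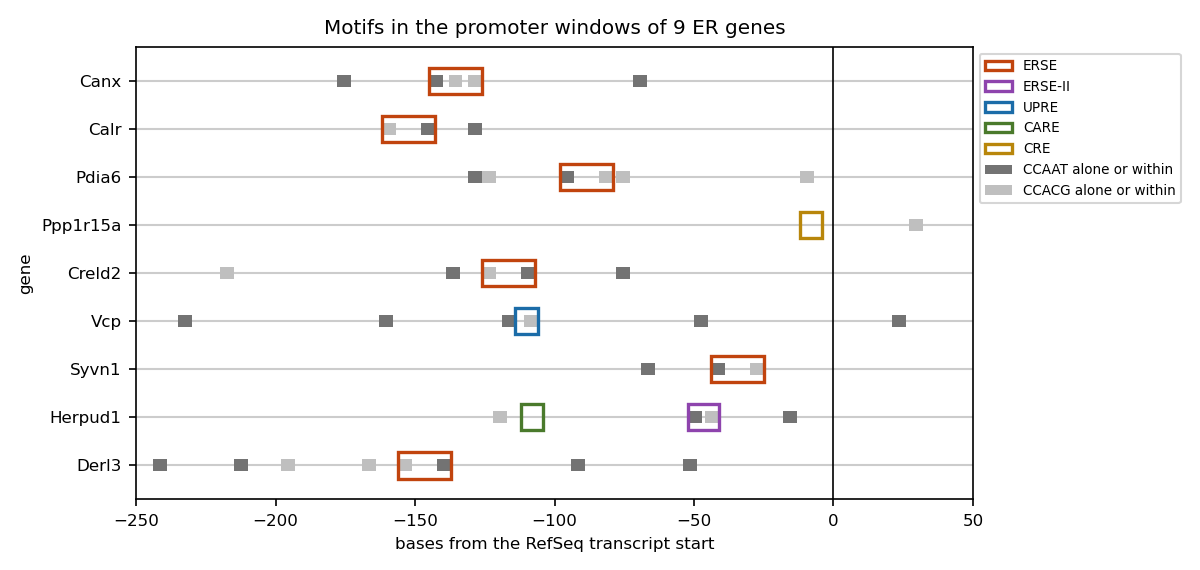
Positions of motifs in the promoter windows of the 9 ER genes with at least 1 of the 5 elements, in bases from the RefSeq transcript start, with outlined boxes for elements and filled boxes for their parts CCAAT and CCACG. The ERSE boxes of 6 genes lie from position -162 to position -26.

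The lectin chaperones Calr and Canx, which hold newly glycosylated proteins in the calnexin cycle, were the most abundant pair. Calreticulin is soluble in the ER lumen and calnexin spans its membrane. Canx (chromosome 11, 50293961 to 50325673, GRCm38) had 733 CPM in replicate 1 and 709 CPM in replicate 2. Calr (chromosome 8, 84841850 to 84846934) had 629 and 615 CPM. Canx was thus higher in both libraries before length was considered. Per kb of exon the order turned, with Calr at 216 ± 3.41 and Canx at 154 ± 3.59 CPM per kb, a ratio of 1.41 ± 0.0106. Calr was the highest of the 44 genes on that scale, above 99.1% of detected genes. Per kb of coding sequence Ssr3, described below, was highest at 530 CPM per kb, and Calr was next at 498.

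The disulfide isomerases split into 4 abundant genes and 1 that was nearly silent. Pdia3, which works with the lectin chaperones, had 563 and 550 CPM. P4hb, the classical disulfide isomerase and a subunit of prolyl 4-hydroxylase, had 343 CPM in each library. Pdia4 had 219 and 217 CPM and Pdia6 had 178 and 179 CPM. Pdia5 (chromosome 16, 35397312 to 35490873) had only 31 and 28 counts, or 0.870 and 0.826 CPM. The libraries were close for each of these genes, and the gap between Pdia5 and the other members was far wider than the spread. Per kb Pdia5 stood at 0.306 ± 0.0113, below all but 1.64% of detected genes, and Pdia3 at 177 ± 3.0, 579.7-fold higher. P4hb was lower than Pdia3 per kb, with a log2 ratio of -0.56 ± 0.02.

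The stress sensor genes were detected at moderate levels. Ern1, which encodes the kinase and RNase IRE1, had 47.6 and 46.6 CPM. Eif2ak3, which encodes the eIF2α kinase PERK, had 56.4 and 58.2 CPM. Atf6, which encodes a membrane-held transcription factor released by cleavage, had 94.6 and 93.5 CPM. Its paralog Atf6b had 93.9 and 90.4 CPM. Ern1 was lower than Eif2ak3 in both libraries. Per kb its log2 ratio to Eif2ak3 was -0.72 ± 0.05, and -0.13 ± 0.05 per kb of coding sequence. For Atf6 over Atf6b the log2 ratio was -1.71 ± 0.03 per kb of exon but 0.14 ± 0.03 per kb of coding sequence, so no order of these paralogs is given. The gut-type paralog Ern2 had 16 and 14 counts.

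Xbp1, whose RNA is cut by IRE1 to encode an active transcription factor, had 92.7 and 94.9 CPM. Its cut and uncut forms differ by a short piece within an exon and share 1 count here, so splicing could not be read from these data. Of the genes that bring a phosphatase to eIF2α and so end the translation block, Ppp1r15b (chromosome 1, 133131143 to 133139783) was abundant, at 248 and 246 CPM. Ppp1r15a (chromosome 7, 45522916 to 45526268), the stress-induced form also named GADD34, had 10.0 and 9.76 CPM. Both libraries showed the same wide gap. Ppp1r15b was 13.1 ± 0.177 times as high per kb, and 23.5 times per kb of coding sequence.

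Known targets of the response that act in the lumen ranged from low to abundant. Hyou1, a large chaperone of the HSP70 family, had 228 and 222 CPM. Manf, a secreted and ER-held survival factor, had 92.2 and 94.4 CPM. Creld2 had 22.1 and 22.4 CPM, and Sdf2l1, found in complexes with the chaperone BiP, had 13.6 and 13.7 CPM. Per kb of exon these 4 genes lay between 12.3 in Sdf2l1 and 31.1 in Hyou1, a 2.53-fold range. Per kb of coding sequence they spread further, between 20.5 in Sdf2l1 and 142.8 in Manf. By rank among the 44 genes Manf stood at 22 per kb of exon and at 13 per kb of coding sequence, which is 653 of its 3524 exonic bases.

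**Figure D3:**
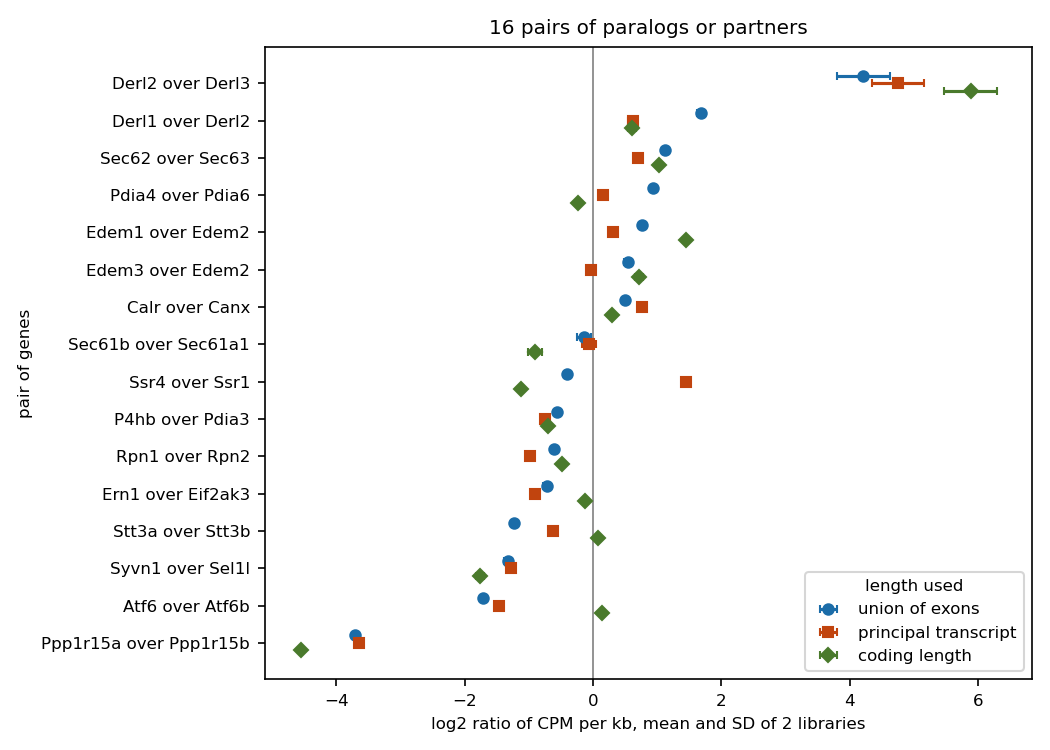
Log2 ratio of CPM per kb for 16 pairs of paralogs or partner genes, the first named over the second, with the mean and SD of 2 libraries under 3 choices of gene length. Ppp1r15a lies far below Ppp1r15b and Derl2 far above Derl3 under each of these lengths, while Pdia4 over Pdia6, Atf6 over Atf6b, Edem3 over Edem2, Stt3a over Stt3b and Ssr4 over Ssr1 cross 0.

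ERAD genes were detected with 1 exception and were led by the ATPase gene Vcp, which pulls substrates out of the membrane, with 482 and 471 CPM. Of Vcp's 50-base transcript windows 40.5% were also found in other genes, most often in Vcp-rs, so the level of Vcp is uncertain. The membrane ligase is formed by HRD1, encoded by Syvn1, and its scaffold SEL1L. Sel1l (chromosome 12, 91806043 to 91849157) had 361 and 370 CPM, and Syvn1 (chromosome 19, 6046576 to 6053712) had 84.3 and 81.4 CPM. Sel1l was higher in both libraries, and per kb it was 2.51 ± 0.104 times as high. Herpud1, a stress-induced partner of HRD1, had 48.6 and 48.7 CPM.

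The derlins, membrane proteins of the export route, were unequal. Derl1 had 80.9 and 76.5 CPM, Derl2 had 59.1 and 59.5 CPM, and Derl3 (chromosome 10, 75893413 to 75895941) had 23 and 33 counts, or 0.645 and 0.973 CPM. Derl3, whose promoter window holds an ERSE, was below 1 CPM in both libraries. Per kb Derl2 was 18.9 ± 5.33 times as high as Derl3, with a wide error beside the few counts of Derl3. That ratio was 27.5 with the principal transcript and 60.3 per kb of coding sequence. Derl1 was above Derl2, with a log2 ratio of 1.68 ± 0.06 per kb of exon and 0.61 ± 0.06 per kb of coding sequence.

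The EDEM genes encode mannose-trimming proteins that mark misfolded glycoproteins, and the lectin OS9 reads the mark. Edem1 had 101 and 97.8 CPM, Edem3 had 86.0 and 84.8 CPM, and Edem2 had 32.9 and 30.5 CPM. Edem1 was above Edem2 per kb, by 0.75 ± 0.04 on the log2 scale. The size of that gap depended on length, at 0.24 with the longest transcript, 0.31 with the principal transcript and 1.44 per kb of coding sequence. The order of Edem3 and Edem2 was not settled, since the log2 ratio was 0.55 ± 0.06 with the union of exons and -0.036 ± 0.060 with the longest transcript. Os9 had 96.5 and 92.4 CPM.

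Genes of the channel and of its translocon-associated protein complex (TRAP) were all detected. Sec61a1, which encodes the pore, had 182 and 169.6 CPM. Of the small subunits, Sec61b had 29.4 and 30.5 CPM, and Sec61g had 33.8 and 36.6 CPM. Per kb the SEC61 genes lay within 1.83-fold, from Sec61g at 14.3 to Sec61a1 at 26.1, and within 2.93-fold with the principal transcript. For Sec61b over Sec61a1 the log2 ratio was -0.15 ± 0.11 per kb of exon, little larger than its spread, but -0.90 ± 0.11 per kb of coding sequence. Sec62 (147 and 145 CPM) and Sec63 (140 and 133 CPM), which help chains to enter after translation, were close in CPM, and Sec62 was 2.17 ± 0.0633 times as high per kb. Of the 50-base windows of Sec61b 17.4%, and of Sec61g 14.8%, were found in transcripts of other genes, so their levels are less certain.

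Within TRAP, Ssr3 (chromosome 3, 65379655 to 65392623) stood highest, with 316 and 322 CPM. Ssr1 had 239 and 237 CPM, Ssr2 had 114 and 116 CPM, and Ssr4 had 53.9 and 52.6 CPM. Ssr3 was highest of the 4 under every length tried, from 4.23-fold to 5.99-fold above the lowest. The order of the others depended on length, with Ssr4 over Ssr1 at -0.41 ± 0.02 on the log2 scale with the union of exons and at 1.45 ± 0.02 with the principal transcript.

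All 6 measured genes of the oligosaccharyltransferase were detected. The catalytic subunit gene Stt3a, whose product acts with the channel during translation, had 315 and 309.7 CPM. Its paralog Stt3b, which acts on skipped sites afterwards, had 353 and 338 CPM. The structural subunits were more varied. Rpn2 had 337 and 322 CPM, Rpn1 had 222 and 219 CPM, Ddost had 142 and 133 CPM, and Dad1 had 59.4 and 58.6 CPM. Rpn1 was lower than Rpn2 per kb, by a log2 ratio of -0.61 ± 0.03. The genes spanned 5.43-fold per kb of exon, with Dad1 lowest, but only 1.67-fold per kb of coding sequence, from Ddost at 103.9 to Dad1 at 174. The annotated exons of Dad1 cover 3916 bases, of which 339 are coding. For Stt3a over Stt3b the log2 ratio was -1.23 ± 0.03 per kb of exon and 0.078 ± 0.027 per kb of coding sequence.

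**Figure D4:**
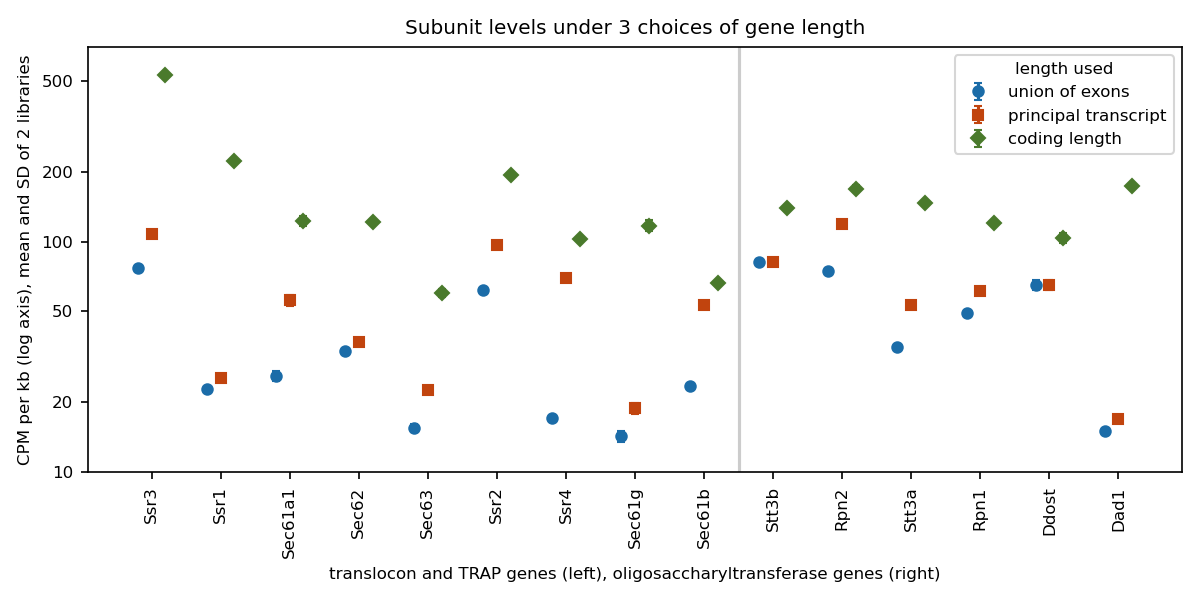
CPM per kb of the 9 translocon and TRAP genes and the 6 oligosaccharyltransferase genes on a log axis, as mean and SD of 2 libraries, with the union of exons, the principal transcript or the coding length as divisor. Dad1 moves from lowest of its complex to highest with coding length, and Ssr3 stays highest of the TRAP genes.

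Of the 16 pairs compared, 10 kept their direction under every length used (union of exons, longest transcript, principal transcript, coding length and none). The smallest p that an exact sign test allows with 2 libraries is 0.5, and none is given for a pair.

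Other genes of the pathway were taken as 81 genes in 8 lists. Of these 75 reached 1 CPM in both libraries, against 37.7% of all genes, and 24 reached 100 CPM, against 7.46%. Among chaperones and cofactors all 11 were detected, led per kb by Hsp90b1, which encodes GRP94 (181 ± 1.6), Hspa5, which encodes BiP (103 ± 1.03), and Dnajc10, with Dnajc1 lowest (3.59 ± 0.00977). Of 8 genes of the calnexin cycle and glucose trimming 7 were detected, led by Ganab (54.1 ± 0.823), Prkcsh and Lman1, while the testis-type lectin gene Clgn had 0 and 2 counts. Of 11 other isomerases and oxidases 10 were detected, led by Tmx1 (25.1 ± 0.274), Txndc5 and Erp44, and the pancreas-type gene Pdia2 had 1 count in each library.

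Of 15 genes of targeting and signal peptide removal 14 were detected. They were led by Tram1 (74.0 ± 4.55 CPM per kb), the receptor gene Srpr and Srp14, and Srp54a was lowest with 28 and 20 counts. Sequence shared with other genes was not tested for the genes of these lists, and how multiply mapping reads were treated is not known. The level of Srp54a is therefore uncertain, and its low count does not show that the gene is silent. All 6 further oligosaccharyltransferase genes were detected, led by Krtcap2 (39.0 ± 2.03), Tmem258 and Ostc, with Magt1 lowest (14.1 ± 0.871). All 16 further ERAD genes were detected, with Nploc4 and Aup1 among the highest per kb and Rnf139 lowest (5.48 ± 0.0336). In the PERK arm all 6 genes were detected, with Atf4 at 106 ± 1.24 CPM per kb, then Eif2s1 and Trib3, and with Atf3 lowest at 4.05 ± 0.0198. Ddit3, which encodes the death-linked factor CHOP and has no single annotation match, had 407 and 409 counts. Of 8 genes of ATF6 processing and related factors 5 were detected, led by the protease gene Mbtps1 (30.1 ± 0.762), Creb3 and Mbtps2, and Creb3l1 had no count.

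In these lists 61 of 81 genes had a promoter window. The ERSE was found in 4 of them (6.56%), Dnajc3, Ero1lb, Hsp90b1 and Hspa5. It was found in 0.1% of the 26927 genes outside both sets.

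The libraries were set against each other with a two-sided exact binomial test per gene, adjusted by Benjamini-Hochberg over the 13336 genes that passed a filter on low counts. All 44 ER genes passed that filter. The test is a comparison of 2 libraries, with no error beyond counting in it. It can call smaller ratios in genes with more counts, and the shares of genes called were not matched for counts. The median was 97.6 CPM over the ER genes and 35.3 CPM over all genes at 1 CPM or more. The test called 5 of the 44 genes, all higher in replicate 1, against 8.13% of all genes called, 4.46% higher and 3.67% lower in replicate 1. They were Sec61a1 (log2 ratio of replicate 1 to replicate 2 0.10, adjusted p = 0.0021), Canx (0.048, adjusted p = 0.00538), Rpn2 (0.068, adjusted p = 0.00859), Stt3b (0.062, adjusted p = 0.0165) and Ddost (0.096, adjusted p = 0.0190). Of these genes 3 belong to the oligosaccharyltransferase, where all 6 of the 44 genes in that complex had a ratio above 0. Of the 6 further genes of the complex, Magt1 alone was called, lower in replicate 1, with a log2 ratio of -0.13 (adjusted p = 0.0415). Over all 8 lists 77 of the 81 genes passed the filter, with 5 called higher and 4 called lower in replicate 1.

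No gene of the 44 differed 2-fold between the libraries, and 43 had a log2 ratio within 0.15 of 0. The exception was Derl3, with a log2 ratio of -0.59 and an exact 95% interval from -1.43 to 0.22. For all kept genes the 10th to 90th percentile of the log2 ratio ran from -0.23 to 0.14. Genes were not matched for counts, so this closeness is not read as a trait of the ER genes. Across the 44 genes 29 were higher in replicate 1 and 15 lower, against 50.7% of all kept genes higher. The median log2 ratio was 0.022, and that of all kept genes was 0.0017. With a dispersion estimated from both libraries, edgeR's exact test called 0 of the 44 genes, with 0 at an unadjusted p under 0.05. In the whole table it called 15 genes (0.112%). That dispersion took in the same difference that was tested, so few calls could arise and the 0 decides nothing.

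**Figure D5:**
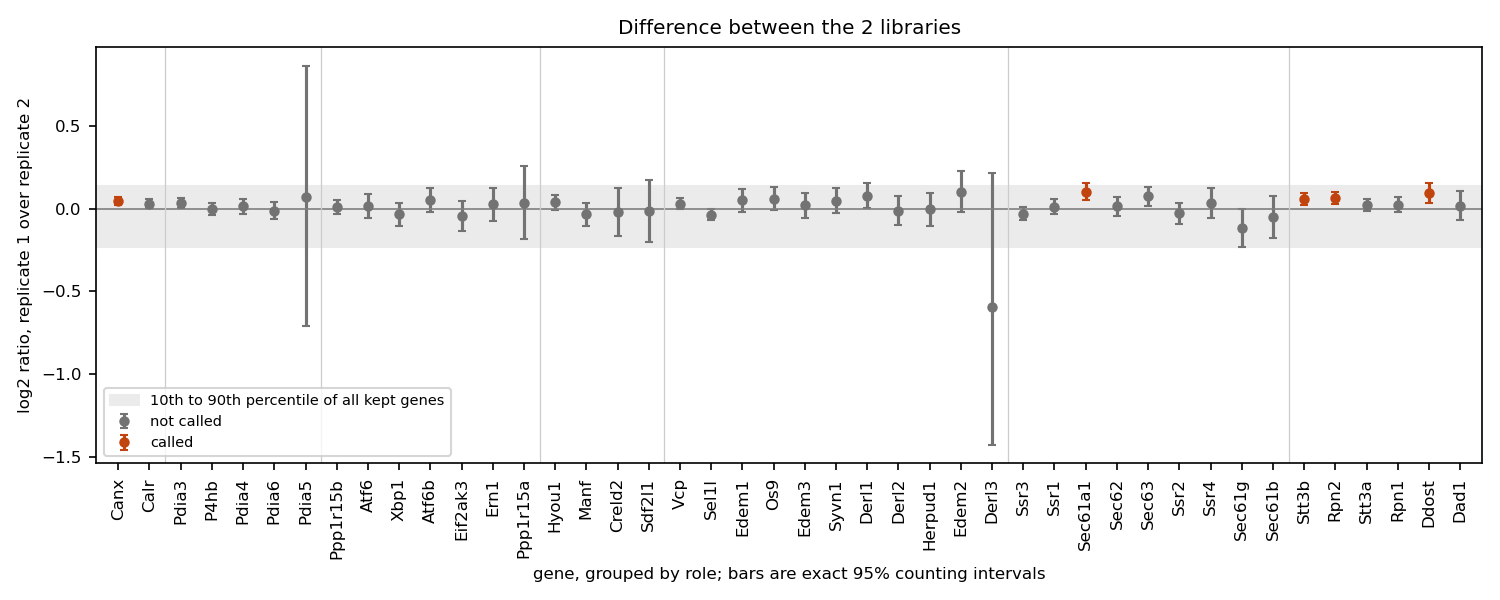
Log2 ratio of replicate 1 to replicate 2 for each ER gene, with exact 95% counting intervals, red for the 5 genes called by the binomial test and grey for the others, over a band for the 10th to 90th percentile of all kept genes. The points except that of Derl3 lie close to 0, and the interval is widest for Derl3 and Pdia5, which had the fewest counts.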

How the data were processed

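Per the labels' protocols, RNA was column-purified, DNase-treated and made into stranded mRNA libraries. The authors deposited 1 table of raw counts, keyed by gene symbol. Tools credited to the submitters' processing notes, whose roles are not described there, are STAR 2.7.9a, featureCounts, FastQC 0.11.9, Cell Ranger 3.0.0 and R 4.1.1; the build is mm10. No source used here gives the annotation, the strand setting or how multiply mapping reads were treated. Counts are therefore uncertain for 4 ER genes with over 5% of their 50-base windows in other genes (Vcp, Sec61b, Sec61g, Derl1) and 8 with over 5% of exonic bases overlapped on the opposite strand (Ssr2, Sec62, Ppp1r15b, Manf, Sec61a1, Eif2ak3, Vcp, Rpn2).

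Counts were scaled with TMM factors of 1.005 and 0.995 (edgeR 4.0.16, R 4.3.3). Lengths and coordinates came from GENCODE M21 (GRCm38), where 98.3% of symbols had a single match. Genes were kept with filterByExpr and tested with an exact binomial test (scipy 1.17.1, threshold 0.05). That test was tried on simulated counts with counting error only, so the trial does not cover other spread between real libraries. Promoter windows are RefSeq's for GRCm38.p6, and Atf6, Derl1, Hyou1, Manf, Ppp1r15b, Sec61a1 and Ssr2 had none.

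The members, lists and pairs were chosen with earlier results of these data known. All 44 genes are named, with the 3 highest and the lowest gene per kb of each further list, except 1 gene that is not reported here. Ern2 and Ddit3 were named after their values were seen. Alternatives were other scalings (total counts, DESeq2 1.42.0, upper quartile), lengths, pseudocounts, detection limits, motifs and tests, and each library left out. Coding length for the medians, principal transcripts and a protein-coding background were added after seeing the data.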

Additional observations from a re-analysis of the deposited data

How the results depend on the processing

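The count of ER genes at 1 CPM stayed at 42 under the other scalings, with either library alone and with a minimum of 5 CPM, and was 44 with 0.5 CPM; the count at 100 CPM was 21 to 22 with a library left out. The excess of their median over detected genes, 1.69 on the log2 scale, stayed positive under every alternative run. It was 1.72 with the longest transcript, 2.07 with coding length, 1.61 with the principal transcript, 1.44 without length, 1.80 with a pseudocount of 0.1, 1.33 with 5, 1.59 with list means, 1.601 against detected protein-coding genes and 4.71 against all genes. Leaving out a library gave 1.67 to 1.70. Of 96 pair values under alternatives 8 changed sign, over 6 pairs, each under another length or without division by length. These were Calr over Canx without length (-0.21), Pdia4 over Pdia6 with coding length (-0.24), Atf6 over Atf6b with coding length (0.14) and without length (0.030), Edem3 over Edem2 with the longest and the principal transcript (-0.036 each), Stt3a over Stt3b with coding length (0.078) and Ssr4 over Ssr1 with the principal transcript (1.45). The binomial test called 9 ER genes with total counts, all higher in replicate 1. With that scaling it called 9.71% of all genes, and the median log2 ratio of all genes was 0.017. The exact test of edgeR, whose dispersion came from the same libraries that it compared, called 0. Windows with an ERSE or UPRE numbered 7, and 9 where CCANG was allowed in place of CCACG in the ERSE. That looser ERSE alone was in 9 of 37 windows and in 0.366% of all genes. Windows with an ERSE or the UPRE core ACGTGG numbered 15. The core alone was in 11 of 37 windows and in 9.4% of all genes. No paired analysis was possible because there is 1 group only. Genes with few counts, Pdia5 and Derl3, are limited by depth.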
